A study of Mus musculus with 12 samples.

Results

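Acute myocardial infarction (MI) was compared with the naive state in RNA of cells that the study sorted from mouse bone marrow as endothelial cells. The comparison takes 6 of the 12 libraries of the series, 3 labelled MI and 3 labelled naive control, all from marrow of C57BL/6J mice aged 20 weeks. The labels do not say whether a library holds 1 mouse or several, so that p-values measure the spread between these libraries. MI was produced by permanent ligation of a coronary artery, and the labels place the collection 2 days after MI, whereas the study's text gives a different day. Operated mice received the opioid buprenorphine and the controls were naive rather than sham-operated, so that infarction, surgery and drug cannot be told apart. The other 6 libraries, from mice made hypertensive with angiotensin II and from *Apoe*-/- mice fed a western diet, entered the statistical fit to estimate the spread between libraries and served in a single further contrast. The question was how gene expression differs between the MI and control libraries. A second question was what remains when MI replicate 2, a library that stood apart from the rest, is left out.

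Marrow endothelial cells line the arterioles and sinusoids of the hematopoietic organ and supply blood stem cells with retention and growth factors such as CXCL12 and stem cell factor. After an infarct the marrow switches to emergency hematopoiesis: stress hormones, cytokines and alarmins released from the injured heart drive production of neutrophils and monocytes. Glucocorticoids, which belong to the same stress response, are known to spare or raise myeloid cells in the marrow while they reduce B lymphocyte precursors. These are general background statements and were not measured here.

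In all, 55421 genes were listed and 15999 had enough counts to be tested. Total counts on genes lay between 17007088 and 25136936 in the 6 libraries. With edgeR's quasi-likelihood test, 0 of the tested genes differed between MI and controls after Benjamini-Hochberg adjustment (0.0% called at an adjusted p under 0.05), and the smallest adjusted p of any gene was 1. At an unadjusted p under 0.05 there were 448 genes, 197 higher after MI (1.23%) and 251 lower (1.57%), which is fewer than the share a threshold of 0.05 allows if no gene differed. This shortfall depended on the test and is not evidence that no gene differs. With limma voom and sample quality weights 802 of the 15999 genes had an unadjusted p under 0.05, and 0 were called. Without MI replicate 2, again 0 of 16424 genes were called (0.0%), with a smallest adjusted p of 0.932 and 285 genes at an unadjusted p under 0.05 (1.74%), 136 higher (0.828%) and 149 lower (0.907%). The main test thus separated none of the differences below from the spread between libraries, and a gene is described as higher or lower, never as changed. Other settings did call genes: *Igkv8-27* passed with edgeR's likelihood-ratio test (adjusted p = 0.00301) and DESeq2 (0.00025). With no filter on low counts the quasi-likelihood test called 130 genes, 72 of them immunoglobulin segments. Only 5 of the 130 had been removed by the filter. *Vcan* (adjusted p = 2.29e-14), *Spib* (4.13e-05), *Cpm* (0.000233) and *Ms4a1* (0.000857) were among them. With the filter kept, *Vcan*, *Spib*, *Cpm* and *Ms4a1* did not pass with the likelihood-ratio test, DESeq2 or limma voom with quality weights. For *Vcan* these adjusted p-values were 0.161, 0.122 and 0.879. Values are TMM-normalized CPM, that is counts scaled to a common library size, given for replicates 2, 3 and 4 in that order, and log2 fold changes are MI minus controls with their standard error.

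The 448 genes did not all depend on MI replicate 2. When it was left out, 170 of them kept the same sign and an unadjusted p under 0.05, and 1 had the opposite sign, although the 2 fits share 5 libraries and cannot be taken as independent. Every MI library was above every control in 683 genes (4.27%) and below every control in 734 genes (4.59%), and with only 2 MI libraries these shares were 9.95% and 9.87%. Genes that met both conditions, no overlap between the groups and an unadjusted p under 0.05 in each fit, numbered 53 higher after MI (0.331%) and 83 lower (0.519%). Of the 53 higher genes 7 were immunoglobulin segments and 31 were protein coding, and of the 83 lower genes 3 and 73.

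The cells were labelled endothelial and had been sorted as TER-119- CD41- CD45- CD31hi SCA-1+ cells. Markers of endothelium were present at unequal levels. Per kilobase of exon, *Cdh5*, which encodes VE-cadherin, held a median level of 0.727 CPM over the 6 libraries (0.602 to 1.02), *Kdr*, the VEGF receptor 2, 0.998 (0.679 to 1.49), and *Pecam1*, the CD31 of the gate, 3.15 (3.05 to 3.79). *Plvap*, a protein of fenestrated and sinusoidal endothelium, was higher, at 23.7 (15.3 to 43.7), and *Ly6a*, the SCA-1 of the gate, was at 13 (8.04 to 15.6). On the same scale *Ptprc*, which encodes the CD45 that the gate removes, had a level of 31.6 CPM per kilobase (23.6 to 40.2), and *Elane* of promyelocytes 9000 (5970 to 9910). Summed over marker lists, endothelial genes held a mean of 297 CPM of the library total in the controls and 278 after MI. Genes of immature neutrophils held 59100 and 67100 CPM, and erythroid genes 24900 and 24200. Transcripts of blood cells were thus abundant in both groups, and far more so than those of the endothelial list. A lower level of a blood cell gene can come from fewer such cells in the sort or from less RNA per cell, and the libraries cannot tell these apart. Since CPM is a share of each library, a lower level need not be an absolute loss.

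MI replicate 2 differed from the other 5 libraries. Among 13424 genes with a mean of at least 1 CPM, it lay at least 2-fold above each of the other 5 libraries in 104 genes and at least 2-fold below each in 207. In the other 5 libraries these counts were between 9 and 30 above and between 6 and 71 below. Its log2 levels correlated with those of the other libraries at Pearson's r of 0.974 to 0.983 across genes, compared with 0.982 to 0.989 among the other 5, where genes are not independent replicates. A limma fit with sample quality weights gave it a weight of 0.406, the lowest of the 6.

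**Figure D1:**
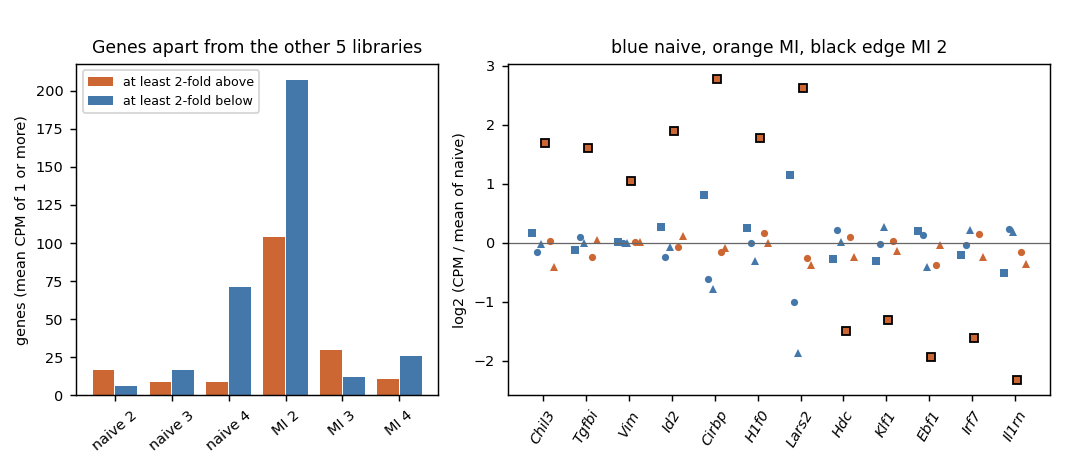
Left, the number of genes (y axis, among 13424 with a mean of at least 1 CPM) in which each of the 6 libraries lay at least 2-fold above (orange) or below (blue) each of the other 5. Right, log2 ratio of each library to the mean of the controls (y axis) for 12 genes (x axis), with naive libraries in blue, MI libraries in orange and MI replicate 2 edged in black. MI replicate 2 had 104 genes above and 207 below, and in the 12 genes shown it is the library farthest from 0.

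Most genes of the B lineage lists were lower after MI, with and without MI replicate 2. In the list of early B lineage genes, 14 of 15 tested genes were lower, with a median log2 fold change of -0.63 compared with 0.00 over all tested genes. In 7 of the 15 every MI library was below every control, against 4.59% of all genes, and 9 had an unadjusted p under 0.05 in the lower direction, against 1.57%. In the list of mature B cells 14 of 15 genes were lower, with a median of -0.48, 10 without overlap and 6 at an unadjusted p under 0.05. When MI replicate 2 was left out, the medians were -0.39 and -0.30, 13 of 15 and 14 of 15 genes were lower, and 3 genes in each list had an unadjusted p under 0.05 in the lower direction, against 0.907% of all genes in that fit. With all 3 MI libraries, the gene that was not lower was *Erg* in the first list, a factor that endothelial cells also express, and *Ighm* in the second. The summed level of the second list, in which *Ighm* has the highest mean, went the other way, with 5350, 6170 and 5010 CPM in the controls and 3190, 8190 and 10100 after MI (log2 difference 0.22, or 0.73 without MI replicate 2; exact two-sided permutation p = 0.8).

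*Spib* encodes an ETS family transcription factor of B cells and plasmacytoid dendritic cells and lies on mouse chromosome 7 (44525993 to 44532071, GRCm38). It held 50.3, 50 and 36.8 CPM in the controls and 12.9, 21.5 and 29.0 after MI, so that the lowest control was above the highest MI library. Its log2 fold change of -1.11 (standard error 0.25) became -0.86 (standard error 0.21) without MI replicate 2, with an unadjusted p of 0.000686 and 0.00178 and an adjusted p of 1 in both edgeR quasi-likelihood fits.

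*Ms4a1*, which encodes CD20, held 43.2, 45.0 and 34.7 CPM in the controls and 10, 25.2 and 26.7 after MI (log2 fold change -0.99, standard error 0.34). *Rag2*, a subunit of the recombinase that assembles antigen receptor genes, held 4.15, 3.14 and 4.03 CPM in the controls and 0.552, 2.22 and 2.32 after MI (-1.15, standard error 0.40). Neither gene overlapped between the groups, and the lowest library was MI replicate 2 in both. *Cd79b*, the signal chain of the B cell receptor, held 182, 151 and 129 CPM in the controls and 86.7, 114 and 117 after MI (-0.54, standard error 0.17). *Igll1*, part of the surrogate light chain of pre-B cells, held 62.6, 29.9 and 35.3 CPM in the controls and 8.83, 26.8 and 23.8 after MI, and *Blk*, a kinase of the B cell receptor, had a mean of 13.2 ± 1.52 CPM in controls and 6.96 ± 1.90 after MI (SD, n = 3 each). *Igll1* shows how narrow some of these gaps were, since MI replicate 3 was just below the lowest control.

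Some of the B lineage regulators were lowest in MI replicate 2 and overlapped between the groups. *Ebf1*, the factor that commits progenitors to the B lineage, held 110, 106 and 72.7 CPM in the controls, 25.1 in MI replicate 2, and 74.0 and 93.3 in the other MI libraries, which lay within the range of the controls. *Pax5*, which maintains B cell identity and was chosen after its values were seen, held 42.9, 41.9 and 23.9 CPM in the controls and 9.05, 19.0 and 36.7 after MI, with overlap. Over the early B list the per-library median of log2 ratios to the control mean was -1.38 in MI replicate 2, -0.52 in replicate 3 and -0.27 in replicate 4, and MI replicate 2 was the lowest of the 6 libraries in 13 of 15 genes, against 27.0% of all tested genes. Summed over the list, early B genes held 829, 645 and 563 CPM of each library's total in the controls and 257, 455 and 562 after MI. The sums did not overlap, by 562 against 563, and the exact two-sided permutation test gave p = 0.1, the smallest that 3 libraries against 3 can give (0.8 after Benjamini-Hochberg adjustment over 16 cell type lists).

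**Figure D2:**
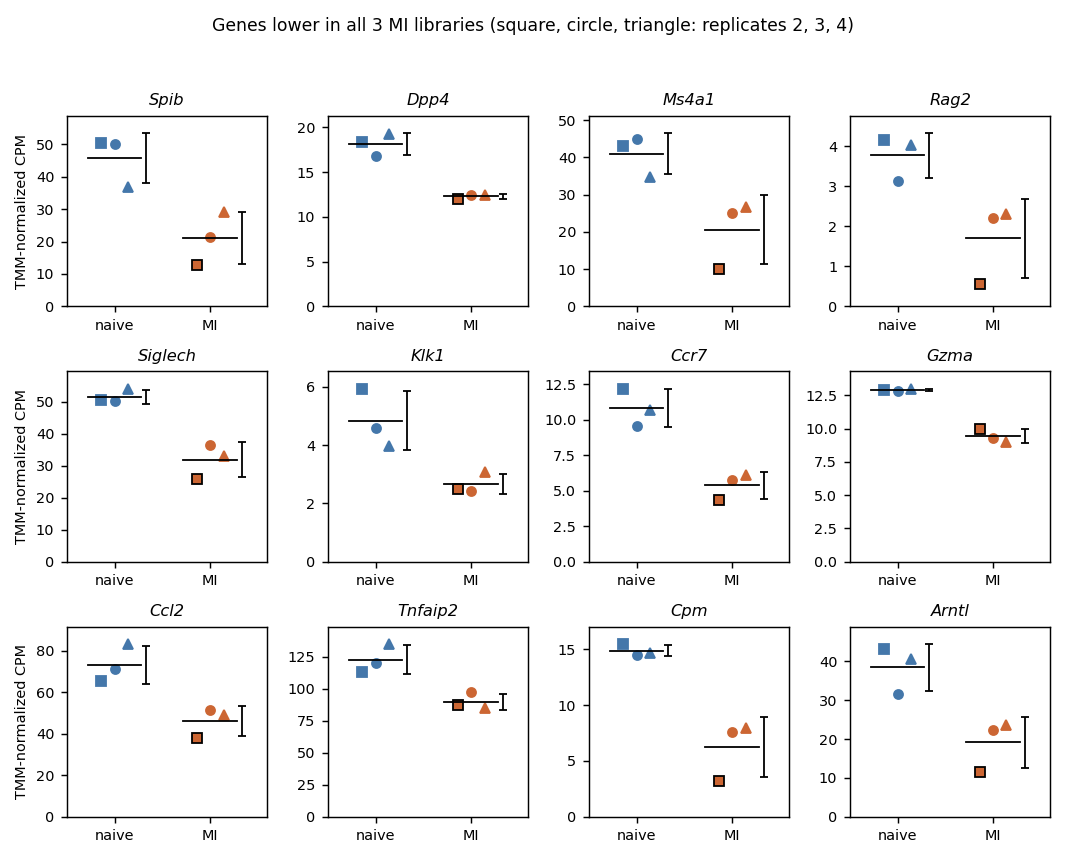
TMM-normalized CPM (y axis, from 0) of 12 genes in the 3 naive (blue) and 3 MI (orange) libraries, with squares, circles and triangles for replicates 2, 3 and 4, horizontal lines for means and bars for SD. In each gene the highest MI library lies below the lowest control, and MI replicate 2, edged in black, is the lowest library for 9 of the 12, *Spib* (12.9) and *Ms4a1* (10) among them.

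Genes of plasmacytoid dendritic cells, the specialized producers of type I interferon, behaved alike. Of 15 tested genes 14 were lower, with a median log2 fold change of -0.54. Of the 15, 9 were without overlap (4.59% of all genes) and 5 had an unadjusted p under 0.05 in the lower direction (1.57% of all genes). Leaving out MI replicate 2 gave a median of -0.29, with 15 of 15 lower and 3 that had an unadjusted p under 0.05 (0.907% of all genes). *Siglech*, a lectin that marks these cells, held 50.5, 50.1 and 54.1 CPM in the controls and 25.9, 36.6 and 33 after MI (log2 fold change -0.70, standard error 0.22, or -0.57 without MI replicate 2). *Klk1*, which encodes tissue kallikrein, held 5.94, 4.60 and 3.96 CPM in the controls and 2.48, 2.43 and 3.07 after MI (-0.86, standard error 0.27). In neither gene did the groups overlap, and in *Klk1* MI replicate 2 was no lower than replicate 3. The summed level of the list was 671, 757 and 652 CPM in controls and 444, 543 and 581 after MI (exact permutation p = 0.1, 0.8 after adjustment over the 16 lists). *Spib* belongs to this list as well as to that of mature B cells.

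The 10 genes of conventional dendritic cells had a median of -0.24 (-0.21 without MI replicate 2). *Ccr7*, the chemokine receptor that guides dendritic cells and T cells to lymph nodes, held 12.2, 9.58 and 10.7 CPM in the controls and 4.31, 5.72 and 6.14 after MI (log2 fold change -1.01, standard error 0.34, or -0.87 without MI replicate 2). Its MI libraries stayed below every control with a wide gap. Class II antigen presentation genes, which dendritic and B cells share, were lower in 7 of 11 cases, 5 of them without overlap (4.59% of all genes), with a median of -0.28 (-0.18 without MI replicate 2). *H2-Ob*, a modulator of peptide loading in B cells, had a mean of 22.2 ± 0.838 CPM in controls and 14.2 ± 4.11 after MI (SD, n = 3 each), a log2 fold change of -0.65 (standard error 0.22).

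Of 20 genes of T and NK cells 19 were lower, with a median log2 fold change of -0.45 (-0.35 without MI replicate 2), 7 were without overlap (4.59% of all genes) and 6 had an unadjusted p under 0.05 in the lower direction (1.57% of all genes). *Gzma*, a protease of cytotoxic granules, held 12.9, 12.8 and 13 CPM in the controls and 9.99, 9.31 and 8.98 after MI. Its controls were nearly identical and its log2 fold change of -0.45 (standard error 0.17) was -0.50 without MI replicate 2. *Tbx21*, the T-bet factor of cytotoxic and helper cells, had a mean of 3.83 ± 0.802 CPM in controls and 2.10 ± 0.632 after MI (SD, n = 3 each; log2 fold change -0.86, standard error 0.30). The summed level of the list overlapped between groups, at 879, 688 and 630 CPM of the library total in controls and 476, 747 and 766 after MI. *Nkg7*, which NK cells and granulocytes both express, weighs heavily in this sum, at 420 to 732 TMM-normalized CPM over the 6 libraries. Whether the sum without *Nkg7* overlaps was not tested. *Il7r*, the interleukin 7 receptor of lymphoid progenitors, held 33.2, 23.6 and 25.5 CPM in the controls and 22.7, 15.0 and 21.5 after MI (log2 fold change -0.48, standard error 0.21, or -0.59 without MI replicate 2).

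**Figure D3:**
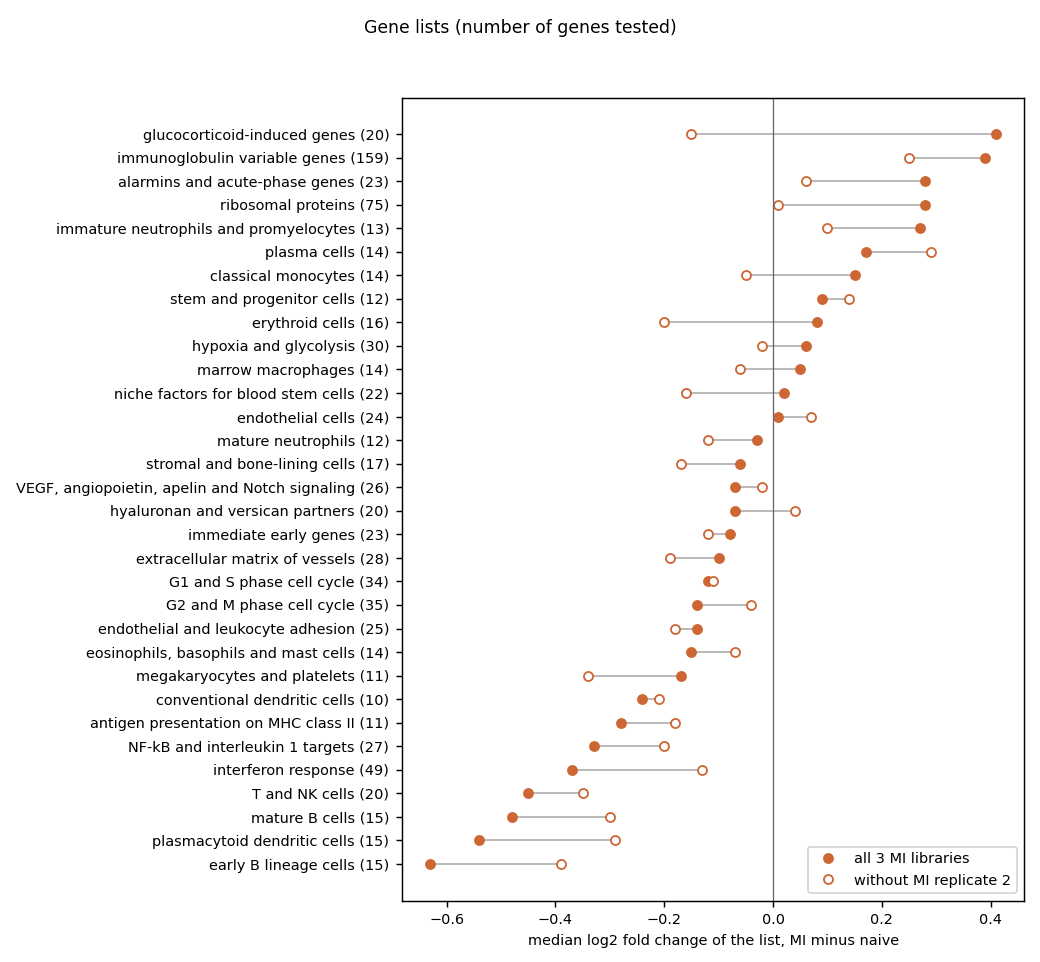
Median log2 fold change, MI minus naive (x axis), of each gene list (y axis, number of tested genes in brackets), with all 3 MI libraries (filled) and without MI replicate 2 (open). The early B, plasmacytoid dendritic, mature B and T and NK cell lists lie at -0.63, -0.54, -0.48 and -0.45 and stay below 0 without MI replicate 2 (-0.39, -0.29, -0.30 and -0.35), whereas the glucocorticoid list moves from 0.41 to -0.15.

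Chemokines and other targets of NF-kB, the factor that relays interleukin 1 and Toll-like receptor signals, were lower more often than higher. Of 27 tested genes 17 were lower and 10 higher, with a median of -0.33, and 5 had an unadjusted p under 0.05 in the lower direction, against 1.57% of all genes. Without MI replicate 2, 22 were lower, the median was -0.20 and 4 had an unadjusted p under 0.05 in the lower direction (0.907% of all genes). *Ccl2*, the chemokine that draws monocytes out of the marrow, held 65.3, 71.2 and 83.4 CPM in the controls and 38.1, 51.6 and 49.3 after MI (log2 fold change -0.66, standard error 0.20, or -0.54 without MI replicate 2). *Tnfaip2*, a gene induced by tumor necrosis factor, held 113, 120 and 135 CPM in the controls and 87.3, 97.1 and 84.7 after MI (-0.45, standard error 0.17). Neither overlapped, and in *Tnfaip2* MI replicate 4, not replicate 2, was lowest.

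*Ptgs2*, the inducible cyclooxygenase, had a mean of 23.1 ± 5.22 CPM in controls and 12.4 ± 3.61 after MI (SD, n = 3 each; log2 fold change -0.90, standard error 0.33) without overlap. *Ccl3*, a chemokine of myeloid cells, was lower by a similar size (-0.56, standard error 0.20), but its controls (30.7, 47.2 and 48.6 CPM) overlapped with the MI libraries (29.5, 32.8 and 23.4). *Nfkbia* and *Nfkb1*, parts of the feedback loop of the same pathway, overlapped between the groups, with 308 to 445 and 297 to 733 CPM for *Nfkbia* in controls and after MI. *Il6*, a cytokine that the study followed up in other mice, held 2.07, 1.79 and 1.75 CPM in the controls and 1.21, 2.80 and 2.49 after MI, so that the MI libraries lay on both sides of the controls.

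Single genes of other functions met the same conditions. *Cpm*, which encodes carboxypeptidase M, a membrane enzyme that trims peptides, held 15.5, 14.5 and 14.7 CPM in the controls and 3.2, 7.57 and 7.99 after MI (log2 fold change -1.25, standard error 0.30, or -0.94 with standard error 0.23 without MI replicate 2). Both of the MI libraries that did not stand apart were far below the lowest control. *Arntl*, which encodes the clock factor BMAL1, held 43.2, 31.7 and 40.5 CPM in the controls and 11.5, 22.2 and 23.7 after MI (-1.01, standard error 0.26). Its partners and targets *Per2*, *Nr1d1*, *Dbp* and *Cry1*, chosen after their values were seen, each overlapped between the groups, with *Per2* at 8.13, 10.5 and 12.2 CPM in the controls and 8.12, 10.7 and 9.67 after MI.

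*Dpp4*, the membrane peptidase that cleaves CXCL12, held 18.3, 16.8 and 19.2 CPM in the controls and 12, 12.4 and 12.4 after MI (log2 fold change -0.56, standard error 0.14). The spread of the MI libraries was 0.236 CPM (SD, n = 3), and the fold change without MI replicate 2 was -0.55. *Scd1*, the desaturase that makes monounsaturated fatty acids, held 18.1, 17.5 and 20.6 CPM in the controls and 10.2, 12.9 and 10.5 after MI (-0.74, standard error 0.21, or -0.68 without MI replicate 2). *Tsc22d1*, a leucine zipper factor, held 89.5, 108 and 122 CPM in the controls and 56.9, 42.7 and 72.3 after MI (-0.89, standard error 0.28). In *Tsc22d1* MI replicate 3 was the lowest library.

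Fewer named protein-coding genes were higher in all 3 MI libraries. *Vcan* encodes the matrix proteoglycan versican, and the study selected it for deletion from these same libraries. The study also reported higher *Vcan* after MI by real-time PCR in sorted marrow endothelial cells, and less hematopoiesis after MI when endothelial *Vcan* was deleted. In the libraries, *Vcan* held 81.7, 16.8 and 26.2 CPM after MI against 6.73, 16.0 and 6.90 in the controls, so that MI replicate 3 was barely above control replicate 3. Its log2 fold change was 2.08 (standard error 0.52), or 1.12 (standard error 0.40) without MI replicate 2. *Fbp1*, the gluconeogenic enzyme fructose bisphosphatase, which monocytes also express, held 22.5, 21.3 and 20.7 CPM in the controls and 60.7, 33.7 and 30.1 after MI (0.95, standard error 0.25, or 0.57 with standard error 0.20 without MI replicate 2). *Ms4a6d*, a membrane protein of monocytes and macrophages, held 25.5, 35.3 and 25.5 CPM in the controls and 58.2, 49.7 and 44.5 after MI (0.82, standard error 0.22, or 0.71 without MI replicate 2).

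*Cdkn1a*, which encodes the cell cycle inhibitor p21, held 28.6, 39.6 and 27.2 CPM in the controls and 47.6, 41.8 and 48.1 after MI (log2 fold change 0.53, standard error 0.18, or 0.50 without MI replicate 2). The groups were separated by a small gap between 39.6 and 41.8. *Stfa2l1*, a stefin, that is a cysteine protease inhibitor of neutrophils, held 13.6, 11 and 10.6 CPM in the controls and 15.2, 14.8 and 20.7 after MI (0.52, standard error 0.19). Its relatives *Stfa1* and *Stfa3*, chosen after their values were seen, also lay above every control, *Stfa1* at 5.44, 5.14 and 5.62 CPM in the controls and 10, 7.46 and 9.91 after MI. The stefins are a family of close copies, and how the authors' counting split their reads is uncertain.

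*Apcdd1*, an inhibitor of Wnt signaling, and *Chst1*, a sulfotransferase of glycans, were higher at very low levels. *Apcdd1* held 0.280, 0.162 and 0.194 CPM in the controls and 1.6, 0.794 and 0.753 after MI (log2 fold change 2.28, standard error 0.44), where 3 counts amount to between 0.119 and 0.176 CPM. *Chst1* had a mean of 1.16 ± 0.371 CPM in controls and 2.91 ± 1.14 after MI (SD, n = 3 each; 1.34, standard error 0.37, or 1.6 without MI replicate 2). Among abundant granule genes of neutrophil precursors, *Camp*, an antimicrobial peptide, held 5570, 4440 and 3900 CPM in the controls and 6560, 5830 and 6660 after MI (0.45, standard error 0.25), and *Lrg1*, an acute-phase glycoprotein, had a mean of 1330 ± 196 CPM in controls and 1740 ± 201 after MI (SD, n = 3 each; 0.39, standard error 0.19). Both were without overlap, whereas the list of immature neutrophil genes as a whole had 10 of 13 genes higher, 1 of them without overlap (4.27% of all genes), and a median of 0.27 (0.10 without MI replicate 2).

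Immunoglobulin genes, the product of B cells and plasma cells, separated MI replicates 3 and 4 from the rest of the comparison. *Ighm*, the heavy chain of IgM, held 2070, 2980 and 1720 CPM in the controls, 1400 in MI replicate 2, and 5940 and 7200 in MI replicates 3 and 4. *Igkc*, the kappa light chain constant region, held 3120, 3870 and 2180 CPM in the controls, 3210 in MI replicate 2, and 12300 and 9030 in the other MI libraries. *Jchain*, which links IgM and IgA into polymers, followed the same order, with 716, 671 and 349 CPM in the controls and 459, 1530 and 1510 after MI. *Igha*, the heavy chain of IgA, ran the other way, with 2590, 2110 and 1330 CPM in the controls and 1560, 321 and 348 after MI.

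Without MI replicate 2 the log2 fold changes were 1.54 (standard error 0.37) for *Ighm*, 1.80 (standard error 0.42) for *Igkc*, 1.39 (standard error 0.40) for *Jchain* and -2.59 (standard error 0.72) for *Igha*, none called by edgeR's quasi-likelihood test (adjusted p = 1 for each). Other tests of the same libraries called *Igkc* (likelihood-ratio adjusted p = 0.0455, DESeq2 0.0189), *Ighm* (DESeq2 0.0311) and *Igha* (0.0152 with only the 5 libraries in the quasi-likelihood fit). *Derl3*, a factor of protein quality control in antibody-secreting cells, held 3.08, 4.12 and 2.83 CPM in the controls and 1.88, 8.68 and 7.36 after MI (1.26, standard error 0.25, without MI replicate 2), and was called there by the likelihood-ratio test (adjusted p = 0.0451) and DESeq2 (0.0132). In these 2 MI libraries *Ms4a1* and *Cd79b* were thus below each control while *Ighm* and *Igkc* were above each control. The same combination of high *Ighm* and low *Igha* was found outside the comparison, in 2 of the 3 *Apoe*-/- libraries (*Igha* at 389 and 225 CPM, *Ighm* at 8720 and 4420), and the direct contrast of MI with the mean of the other 2 disease groups, in which 0.0125% of all genes were called, gave an adjusted p of 0.843 for *Ighm* and 0.789 for *Igha* in the same quasi-likelihood test.

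**Figure D4:**
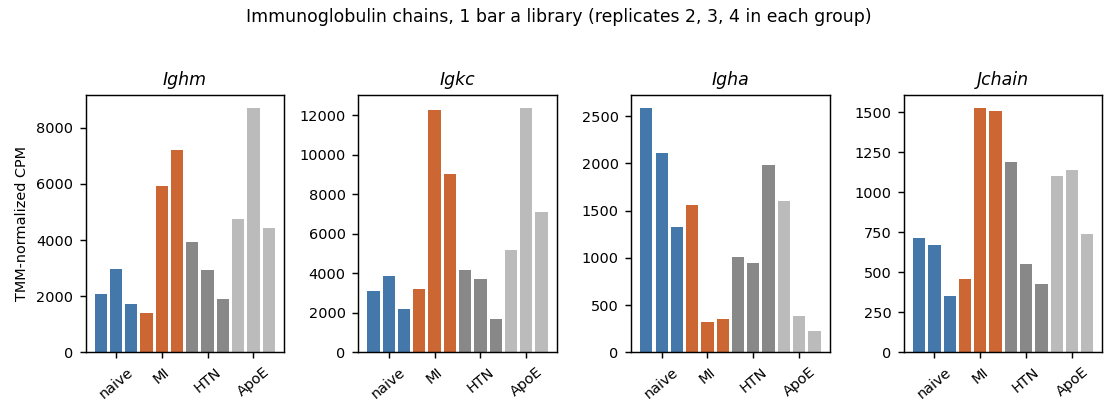
TMM-normalized CPM (y axis, from 0) of *Ighm*, *Igkc*, *Igha* and *Jchain* in the 12 libraries, 1 bar a library in the order of replicates 2, 3 and 4 of naive (blue), MI (orange), hypertension (dark grey) and *Apoe*-/- mice (light grey). MI replicates 3 and 4 are above the controls in *Ighm* (5940 and 7200) and below them in *Igha* (321 and 348), and MI replicate 2 is not.

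Some variable gene segments were high in a single library. Kappa variable genes summed to 787, 1060 and 633 CPM of the library total in the controls and to 751, 3410 and 2690 after MI. *Igkv3-2* held 4.71, 3.84 and 0.349 CPM in the controls and 4.97, 17.5 and 556 after MI, and *Igkv19-93* held 27.5, 20.9 and 22.4 in the controls and 51.9, 624 and 28.1 after MI. In MI replicate 4, *Igkv3-2* took 21% of all kappa variable counts, and *Ighv6-3* took 62.3% of the heavy chain variable counts. Variable segments of the same family can be close copies, so the assignment of reads to a single one is uncertain.

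*Igkv8-27* was the gene with the smallest p among the lower genes. It lies on chromosome 6 (70171809 to 70172270, GRCm38) and held 61.3, 35.4 and 46.0 CPM in the controls and 6.79, 8.15 and 10.5 after MI, which on the log2 scale is a difference of -2.49 with a standard error of 0.47 (edgeR's quasi-likelihood adjusted p = 1). All 3 MI libraries were far below the controls, but 2 of the 3 hypertension libraries (15.6 and 9.20 CPM) and 1 *Apoe*-/- library (9.78) were low too. Over the whole family, 159 variable genes were tested and 94 were higher and 65 lower, with 10 above and 6 below every control (4.27% and 4.59% of all genes). At an unadjusted p under 0.05 there were 25 higher and 10 lower (1.23% and 1.57% of all genes), and 30 and 13 of 167 without MI replicate 2 (0.828% and 0.907%). *Igkv6-15*, at 51.6, 83.4 and 51.2 CPM in the controls and 55.0, 388 and 345 after MI, had the smallest p of all genes without MI replicate 2 (log2 fold change 2.56, standard error 0.42, adjusted p = 0.932 in edgeR's quasi-likelihood test).

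Among the most abundant genes in which MI replicate 2 lay above the other 5 libraries, *Chil3*, a chitinase-like protein of monocytes and neutrophils, held 5870 CPM against 1360 to 2030 in the other 5 libraries, *Tgfbi*, a matrix protein that macrophages secrete, 335 against 92.6 to 118, *Vim*, the intermediate filament vimentin, 805 against 389 to 397, and *Id2*, an inhibitor of B cell factors, 346 against 78.1 to 112. MI replicate 2 was the highest library in 8 of the 14 genes in the list of classical monocytes, against 27% of all tested genes. This list had 11 of 14 genes higher with a median of 0.15, which was -0.05 with 5 of 14 higher without MI replicate 2. *Ms4a6c* was the 1 monocyte gene of that list above every control, at 122, 150 and 94.2 CPM in the controls and 200, 167 and 167 after MI. By its summed markers, MI replicate 2 held 13400 CPM of classical monocyte genes, against 9440 to 11400 in controls and 10200 and 9150 in the other MI libraries.

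Many genes that glucocorticoids induce were highest in MI replicate 2. Of 20 tested genes 15 were higher with a median of 0.41, and without MI replicate 2 the count was 6 and the median -0.15. MI replicate 2 was the highest of the 6 libraries in 13 of the 20, against 27.0% of all genes. *Cdkn1a* and *Tsc22d1*, described above, belong to this list and did not follow it, since MI replicate 4 was the highest library in *Cdkn1a* and *Tsc22d1* was below every control in all 3 MI libraries. *Per1*, a clock gene with a glucocorticoid response element, held 28.3 CPM against 8.50 to 10.7 in the other 5 libraries. *Fkbp5*, the immunophilin that restrains the glucocorticoid receptor, and *Klf9*, both chosen after their values were seen, held 135 and 115 CPM, against 34.9 to 50.6 and 26.5 to 31.6. *Cish*, a feedback inhibitor of STAT5 chosen in the same way, held 43.7 CPM against 5.69 to 9.90. In MI replicates 3 and 4 *Fkbp5* was at 34.9 and 35.2 CPM, just below the lowest control at 35.9, and *Per1* was within the range of the controls.

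Several other abundant genes were high in the same library. *Cirbp*, the cold-inducible RNA-binding protein, held 670 CPM in MI replicate 2, 87.9 and 92.9 in the other MI libraries, and 173, 64.5 and 57.2 in the controls. *Lars2*, a mitochondrial tRNA synthetase, held 1500 CPM in MI replicate 2, 204 and 188 in the other MI libraries, and 543, 122 and 67.3 in the controls, where replicate 2 was also high, and the uncharacterized transcripts *Gm15564* and *Mir6236* likewise had control replicate 2 as the second highest library. Ribosomal protein genes took 1.19% of counts in MI replicate 2, between 0.678% and 0.936% in the controls, and 0.711% and 0.808% in the other MI libraries. MI replicate 2 was the highest library in 62 of 75 of these genes, against 27% of all tested genes. The mitochondrial genome took 1.82% of counts in MI replicate 2, compared with 1.06% to 1.67% in the controls. The part of these differences in the other results was not tested.

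Other genes were lower in MI replicate 2 than in the other 5 libraries. *Klf1*, the erythroid master factor, held 232 CPM against 464 to 694, *Hdc*, the histamine-forming enzyme of basophils and myeloid progenitors, 120 against 278 to 392, *Cd209a*, a lectin of dendritic cells and monocytes, 15.2 against 74.6 to 170, and *Il1rn*, the interleukin 1 receptor antagonist, 18.5 against 64.9 to 109. *Irf7*, the amplifier of type I interferon, held 29.5 CPM against 76.3 to 105. *Creld2*, a chaperone of the endoplasmic reticulum, was low in MI replicate 2 (66.8) while the other MI libraries (240 and 252) were above the controls (134 to 178).

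Interferon response genes were lower after MI, most of all in MI replicate 2. Their per-library median of log2 ratios to the control mean was -0.73 in MI replicate 2, -0.06 in replicate 3 and -0.20 in replicate 4. Of 49 tested genes 44 were lower with a median of -0.37, and in 8 every MI library was below every control (4.59% of all genes). MI replicate 2 was the lowest of the 6 libraries in 40 of the 49, against 27.0% of all genes. Without it 39 were lower with a median of -0.13, and 0 had an unadjusted p under 0.05 (0.907% of all genes were lower at that threshold). *Gbp2*, a guanylate-binding GTPase of host defense, held 11.8, 10.2 and 10.9 CPM in the controls and 4.86, 10.3 and 7.07 after MI (log2 fold change -0.56, standard error 0.25, or -0.33 without MI replicate 2). *Usp18* and *Rtp4*, interferon-induced genes chosen after their values were seen, held 9.22 and 10 CPM in MI replicate 2, against 32.6 to 44.6 and 40.8 to 46.6 in the other 5 libraries.

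Interferon response genes share a promoter sequence, the interferon-stimulated response element, which is bound by STAT and IRF factors. Its core was searched as GAAA, any 2 bases and GAAA again, on both strands in windows from 250 bases before to 50 after annotated start sites (RefSeq, GRCm38.p6). Of the 49 tested interferon genes 36 had a window, and 23 of their 44 windows (52.3%) held a match, against 3.44% of all 32851 windows. A match describes these letters and is not evidence of binding in these cells. The 150 bases before the start site are shown for 3 of the genes to set a shared sequence beside unlike values, 5′ to 3′ on the coding strand with matches in capitals: *Gbp2* (chr3:142620513-142620662, plus strand), *Ifit1* (chr19:34640739-34640888, plus strand) and *Isg15* (chr4:156200819-156200968, minus strand).
Gbp2: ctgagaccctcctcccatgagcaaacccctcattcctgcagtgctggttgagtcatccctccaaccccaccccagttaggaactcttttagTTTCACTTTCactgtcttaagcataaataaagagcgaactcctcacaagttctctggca
Ifit1: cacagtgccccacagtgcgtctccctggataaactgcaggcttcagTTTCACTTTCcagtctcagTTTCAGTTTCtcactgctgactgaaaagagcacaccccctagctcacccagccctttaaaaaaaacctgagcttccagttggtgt
Isg15: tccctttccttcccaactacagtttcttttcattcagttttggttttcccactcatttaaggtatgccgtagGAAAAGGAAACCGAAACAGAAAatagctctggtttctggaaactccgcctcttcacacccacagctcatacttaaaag

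In the 150 bases shown, *Gbp2* had 1 match, *Ifit1* 2 and *Isg15* 3 overlapping ones. *Ifit1* and *Isg15*, chosen for this display after their values were seen, encode an RNA-binding antiviral protein and a ubiquitin-like modifier. *Ifit1* held 13.3, 14.1 and 17.9 CPM in the controls and 4.80, 14.3 and 13 after MI, with a low value in MI replicate 2 alone. *Isg15*, with the most matches, held 38.1, 27.2 and 40.6 CPM in the controls and 26.3, 45.8 and 36.8 after MI, and MI replicate 2 was only just below the lowest control. The number of matches in the bases shown did not order the values of these 3 genes.

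In endothelial genes and the pathways for which the marrow vasculature is known, the list medians lay near 0. *Cdh5* and *Kdr* were scarce, with medians of 0.727 and 0.998 CPM per kilobase, compared with 23.7 for *Plvap* and 31.6 for *Ptprc*. A difference within endothelial cells could thus be missed. Of 24 endothelial genes 13 were higher and 11 lower, with a median of 0.01 (0.07 without MI replicate 2), and in 0 of them were the groups without overlap. The endothelial sum was 291, 228 and 370 CPM in the controls and 252, 310 and 271 after MI (exact two-sided permutation p = 0.8). *Kdr* held 9.08, 6.28 and 13.1 CPM in the controls and 6.57, 11 and 8.98 after MI, and its ligand *Vegfa* 28, 31.7 and 33.8 in the controls and 23.1, 31.5 and 25.5 after MI. In the list of VEGF, angiopoietin, apelin and Notch genes 10 of 26 were higher, with a median of -0.07, and 0 had an unadjusted p under 0.05.

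Niche factors were as variable. *Cxcl12*, which retains stem cells in the marrow, held 180, 111 and 250 CPM in the controls and 196, 181 and 116 after MI, *Kitl*, stem cell factor, 16.4, 12.9 and 22.3 in the controls and 16.2, 31.6 and 17.9 after MI, and *Vcam1*, an adhesion molecule of endothelium and macrophages, 196, 173 and 223 in the controls and 303, 201 and 145 after MI. *Angpt1*, a vessel-stabilizing ligand, held 19.8, 11.9 and 13.3 CPM in the controls and 12, 11.1 and 17.6 after MI. All 4 overlapped between the groups, and the niche list of 22 tested genes had a median of 0.02 (-0.16 without MI replicate 2), with 2 genes below every control (4.59% of all genes). The standard error of the log2 fold change of *Cxcl12* was 0.43.

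Other lists gave smaller medians or medians that moved with MI replicate 2. Cell cycle genes were lower in 28 of 34 cases for G1 and S phase and in 28 of 35 for G2 and M phase, but by small amounts, with medians of -0.12 and -0.14 (-0.11 and -0.04 without MI replicate 2) and 0 genes at an unadjusted p under 0.05 in both. *Mki67*, the proliferation marker Ki-67, held 1360, 1150 and 1380 CPM in the controls and 1220, 1290 and 978 after MI. In the list of hyaluronan and versican partners, *Vcan* included, 8 of 20 genes were higher, with a median of -0.07 (0.04 without MI replicate 2). Alarmins and acute-phase genes were higher in 19 of 23 cases with a median of 0.28, which was 0.06 without MI replicate 2. MI replicate 2 was the highest library in 15 of the 23, against 27% of all tested genes. Medians of the lists of erythroid, megakaryocyte, mature neutrophil, macrophage, stromal, stem cell, plasma cell, eosinophil and basophil, adhesion, hypoxia, vessel matrix and immediate early genes lay between -0.17 and 0.17, and without MI replicate 2 between -0.34 (megakaryocytes, 11 of 11 genes lower) and 0.29 (plasma cells). Ribosomal protein genes were higher in 71 of 75 cases with a median of 0.28, which was 0.01 without MI replicate 2.

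**Figure D5:**
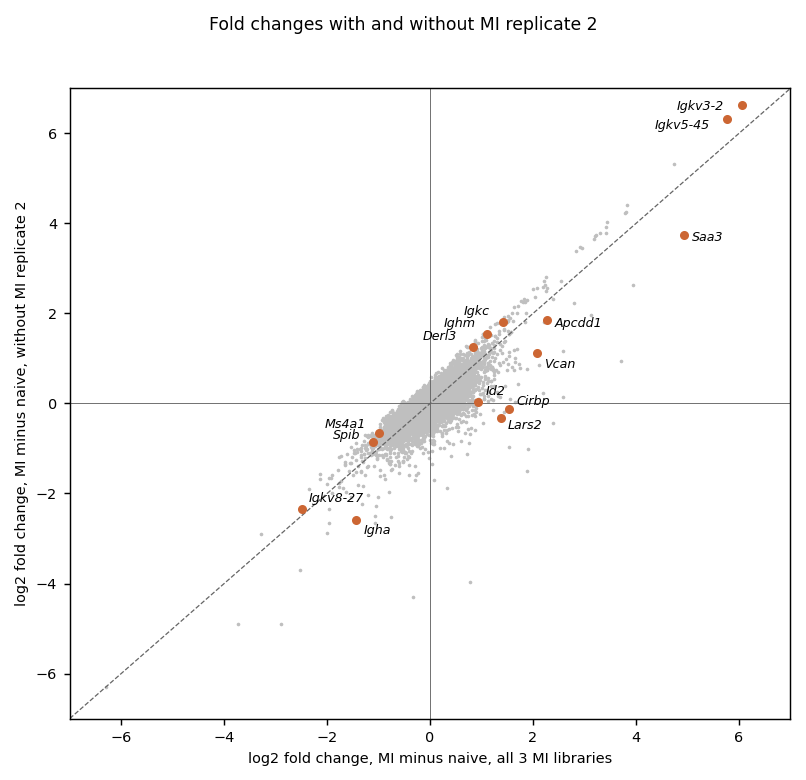
Log2 fold change, MI minus naive, of each tested gene with all 3 MI libraries (x axis) and without MI replicate 2 (y axis), with named genes in orange and equality as a dashed line. *Spib* and *Ms4a1* stay below 0 on both axes, *Lars2* and *Cirbp* drop to -0.32 and -0.12 on the y axis, and *Ighm* and *Igkc* lie above the line.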

How the data were processed

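Sorted marrow cells were sequenced by the authors as 12 single-end, polyadenylated, strand-specific libraries. The authors aligned reads to GRCm38.p6 with STAR 2.7.3a (submitters' processing notes) and deposited raw counts per Ensembl gene, unnormalized. Which strand column was taken is not given in the sources used here. Groups and replicate numbers came from the labels, and all 12 columns were used. Of 55421 genes 55240 had a GENCODE M21 entry.

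Fits used R 4.3.3 and edgeR 4.0.16 (filterByExpr, TMM, glmQLFit, glmQLFTest, 1 coefficient a group, 8 residual degrees of freedom, common dispersion 0.0634), two-sided, with Benjamini-Hochberg adjustment over all tested genes. Alternatives were edgeR's likelihood-ratio test, DESeq2 1.42.0, limma 3.58.1 voom with quality weights, RLE factors, 2 other filters, fewer libraries, a replicate block, a table stripped of immunoglobulin and hemoglobin genes, and each library left out. The steps were tested on simulated counts. CPM is scaled by TMM, and by library totals for summed markers and levels per kilobase. Intervals of counting error are not given, and 3 counts were taken as the floor.

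The comparison, the 16 cell type and 16 pathway lists and the rule for named genes were chosen with earlier results of these data known. Named genes were the 10 higher and 10 lower with the smallest p in each fit, 8 genes the study followed up, 4 by p and 3 by level in each list, and the 10 most abundant apart in MI replicate 2 in each direction. Not all are printed. The labels do not say whether mice of a group were housed or sorted together. Results for certain genes are not reported here.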

Additional observations from a re-analysis of the deposited data

Results flagged for a closer look

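MI was contrasted directly with the mean of hypertension and atherosclerosis, and 2 of 15999 genes passed (0.0125%). The compared means hold no control library, but the controls entered the filter, the scaling and the estimate of the spread. *Apoe* was higher after MI by 3.44 on the log2 scale (standard error 0.31, adjusted p = 0.00065 in edgeR's quasi-likelihood test), which the deleted *Apoe* gene of the atherosclerosis mice builds in. *Scd1* had a log2 difference of -1.45 (standard error 0.19, adjusted p = 0.0293 in the same test), with 11.2 ± 1.46 CPM after MI, 22.0 ± 0.306 in hypertension and 42.2 ± 14.3 in atherosclerosis (SD, n = 3 each), and with every MI library below all 6 others. Without MI replicate 2 the *Scd1* difference was -1.38 and its adjusted p 0.275 in edgeR's quasi-likelihood test. *Vcan* had a log2 difference of 2.78 (adjusted p = 0.0707 in edgeR's quasi-likelihood test). Its highest MI library was MI replicate 2, and against the controls its log2 fold change of 2.08 was 1.12 without that library.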

How the results depend on the processing

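The count of genes called between MI and controls stayed at 0 with limma voom with quality weights, RLE factors, a minimum of 10 counts in every library, immunoglobulin and hemoglobin genes left out, an adjusted p under 0.1, and each library left out in turn. It was 1 with edgeR's likelihood-ratio test, 1 with DESeq2 and 1 with only the 6 libraries (*Igkv8-27* lower each time, adjusted p = 0.00301, 0.00025 and 0.02), and 130 with no filter, of which 72 were immunoglobulin segments. The cause was not tested. Without MI replicate 2 the count was 7 with the likelihood-ratio test, 7 with DESeq2 and 6 with only 5 libraries. The contrast with the other disease groups gave 134 genes with the likelihood-ratio test and 1 without MI replicate 2.

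Deviations of same-numbered MI and control libraries from their group means correlated at 0.23, 0.06 and -0.2. Those of differently numbered libraries correlated at between -0.3 and 0.26. With 3 libraries a group these values cannot decide whether the replicate numbers pair the libraries. With the replicate number as a block 0 genes were called and 446 had an unadjusted p under 0.05.

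Log2 differences of marker sums turned direction as single libraries were left out, ranging from -0.25 to 0.10 (endothelial), -0.14 to 0.21 (stromal), -0.11 to 0.16 (monocytes), -0.11 to 0.15 (macrophages), -0.15 to 0.23 (mature neutrophils), -0.25 to 0.13 (erythroid, 0.01 with TMM), -0.30 to 0.79 (megakaryocytes), -0.10 to 0.73 (mature B), -0.28 to 0.06 (T and NK) and -0.08 to 0.09 (eosinophils). With 3 libraries a group the exact test cannot fall below 0.1.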
